A study of Homo sapiens with 9 samples.

Results

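Tenascin C, the product of the gene TNC, is a large secreted glycoprotein of the extracellular matrix. It is 1 of 58233 genes in the tables and was taken by its gene symbol, which matched 1 gene ID, ENSG00000041982.15. RNA sequencing was done on TC32, an Ewing sarcoma cell line that carries the EWSR1-FLI1 fusion gene, and all 9 libraries come from this line. In the first group, here named inhibitor cells, Wnt3a was present for 28 h, and SB-505124, a blocker of the type I receptor kinases for TGF-β and activin, was added after 4 h and stayed for 24 h. Wnt3a cells received the ligand for 28 h and DMSO in place of the inhibitor. Vehicle cells received PBS in place of the ligand and then DMSO. There were 3 libraries in each group, no group received the inhibitor without Wnt3a, and no source used here gives a dose. Separate cultures are not stated in the labels for the replicates, so each p-value rests on a spread between libraries that may be technical.

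Tenascin C assembles into a six-armed hexamer in the space around cells. Each arm carries epidermal growth factor-like repeats, fibronectin type III repeats and a fibrinogen-like globe, and some of the type III repeats are spliced in or out. It is abundant in the embryo, scarce in most adult tissues and made again in wounds and tumours, where it binds fibronectin and integrins and loosens cell adhesion. TGF-β is a known inducer of the gene in fibroblasts and cancer cells. In Ewing sarcoma, tenascin C has been linked to Wnt signalling, to cell migration and to the shaping of the tissue around the tumour.

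TNC lies on chromosome 9 at positions 115019578 to 115118257 of hg38, on the minus strand, and spans 98.7 kb. The count used here sums all of its transcripts, of which GENCODE release 29 annotates 14. The sequences below come from the RefSeq promoter table, on GRCh38.p14 and the minus strand. They are shown because the ligand and the inhibitor act through factors that bind DNA, namely TCF/LEF proteins with β-catenin and SMAD proteins. Capitals mark, in the first line, a GC box, an NF-κB site and an octamer of POU factors. In the second line they mark a SMAD box, read on the opposite strand, and in the third a TATA box.

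TNC upstream stretch, chr9:115118258-115118407: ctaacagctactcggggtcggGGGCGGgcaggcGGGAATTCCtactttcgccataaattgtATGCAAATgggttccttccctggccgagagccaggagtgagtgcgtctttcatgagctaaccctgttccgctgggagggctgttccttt
TNC SMAD box, chr9:115118210-115118239: gtgggaaaggatGTCTGgaggcgaggcgtc
TNC TATA box, chr9:115118167-115118196: aggagctcgctaTATAAGccagccaaagtt

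Both strands of the 250 bases before the RefSeq start of TNC, base 115118157, were searched, and the same was done for 35116 promoters. GENCODE places its outermost start 100 bases further upstream, so the shorter lines lie inside the gene as GENCODE draws it. The TATA box (TATAAG) began 27 bases before the start and is in 5.03% of promoters, and the form TATAAA, found in 10.7%, was not in this window. The SMAD box (CAGAC) began 70 bases before the start and is in 38.0% of promoters. The octamer (ATGCAAAT), at 189 bases, is in 1.63%, the NF-κB site (GGGAATTCC), at 217 bases, in 0.194%, and the GC box (GGGCGG), at 229 bases, in 42.6%. The TCF/LEF core TCAAAG, in 11.2% of promoters, and the AP-1 site TGANTCA, in 6.57%, were not among these letters. No marked motif overlapped another, and a match is a run of letters, not a measured site.

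TNC was an abundant transcript in every library and its level followed the treatment in the order inhibitor, vehicle, Wnt3a. As CPM, the read count scaled to library size and TMM factor, TNC stood at 259, 373 and 382 in inhibitor cells, at 1142, 754 and 1299 in Wnt3a cells and at 620, 369 and 707 in vehicle cells. The 3 Wnt3a libraries lay above all other libraries, and 2 of the 3 inhibitor libraries lay just above the lowest vehicle library. In the authors' TPM, which also divide by transcript length, TNC stood at 71.3, 96.4 and 102 in inhibitor cells, at 383, 244 and 413 in Wnt3a cells and at 194, 113 and 225 in vehicle cells. On that scale no pair of groups overlapped, though the share of all genes for which this holds in TPM was not computed. TNC took 0.0236% to 0.0343% of a library's counts in inhibitor cells, 0.0831% to 0.133% in Wnt3a cells and 0.0394% to 0.0736% in vehicle cells.

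**Figure D1:**
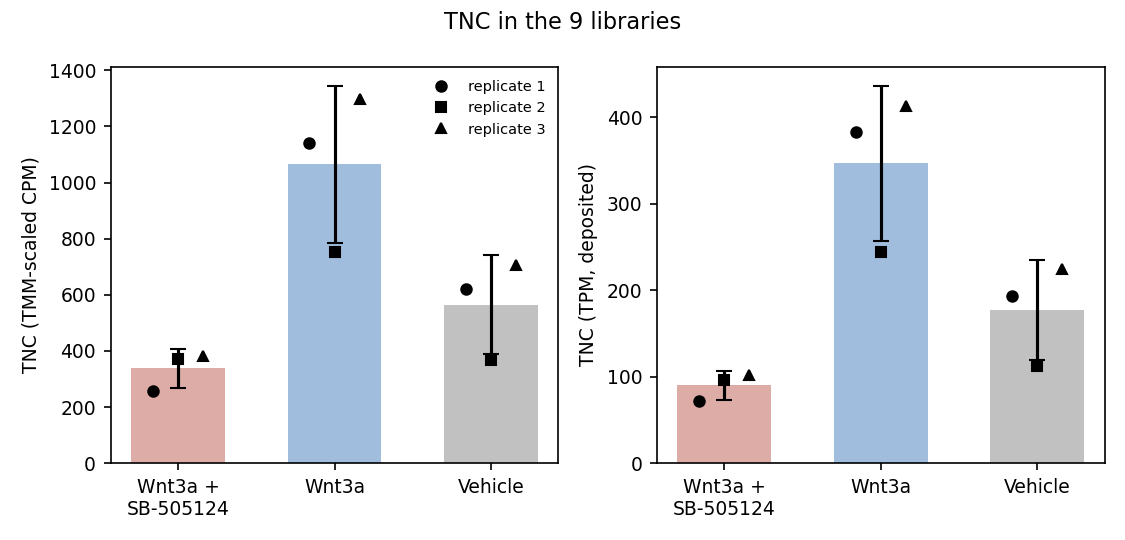
TNC in each library as TMM-scaled CPM (left) and as the authors' TPM (right), with inhibitor cells (Wnt3a + SB-505124) on the left of each panel, Wnt3a cells in the middle and vehicle cells on the right. Bars are means, error bars the SD of 3 libraries and symbols the replicates; the Wnt3a libraries lie between 754 and 1299 CPM, and the inhibitor libraries between 259 and 382 CPM.

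The libraries held 28844348 to 42976799 counts, and TNC had 6814 to 57051 of them, so that counting error alone was 0.419% to 1.21% of the value. The SD between replicates was 20.4% of the mean in inhibitor cells, 26.3% in Wnt3a cells and 31.1% in vehicle cells. No 2 libraries of a group were copies of each other: across genes, their counts gave 7.37 to 68.3 times the chi-square that sampling noise would give. Inhibitor libraries differed from the rest in composition. They had 23196 to 23250 genes with a count, against 25662 to 26802 in Wnt3a and 25128 to 25762 in vehicle libraries, and TMM factors of 0.876 to 0.914, against 1.02 to 1.10 for the other 6. Part of each inhibitor fold change therefore rests on the scaling: with library totals alone, the median of all genes moved by -0.25 on the log2 scale for inhibitor against Wnt3a and by -0.23 for inhibitor against vehicle. Relative to the median of all genes, TNC differed by -1.60 in the first and -0.70 in the second comparison under TMM, and by -1.59 and -0.70 under library totals.

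With SB-505124 added to Wnt3a-treated cells, TNC was lower than with Wnt3a and DMSO. TNC averaged 338 ± 68.8 CPM in inhibitor cells and 1065 ± 280 CPM in Wnt3a cells (SD, n = 3 each), 3.15-fold lower with the inhibitor. Its log2 fold change was -1.66 (SE 0.2702, 95% interval -2.26 to -1.05, edgeR adjusted p = 0.000673). All 3 inhibitor libraries lay below all 3 Wnt3a libraries. The background of this comparison is wide: 50.4% of the 17880 genes tested passed, 24.5% as rises and 25.9% as falls. Inhibitor libraries lay all below the Wnt3a libraries in 30.3% of genes and all above them in 27.8%. By size, 11.3% of genes had a larger absolute log2 fold change than TNC. The call held under each of 21 other settings, with log2 fold changes of -1.93 to -1.48 (adjusted p 2.17e-10 to 0.00329). Of the calls, 4379 were rises and 4634 falls with TMM, and 2828 and 6425 with library totals. RNA of a whole culture was measured, so fewer cells that express TNC and less TNC RNA per cell cannot be told apart.

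Wnt3a alone gave a higher mean that did not pass. TNC averaged 1065 ± 280 CPM in Wnt3a cells and 565 ± 176 CPM in vehicle cells (SD, n = 3 each), a ratio of 1.88. The log2 fold change was 0.91 (SE 0.265, 95% interval 0.323 to 1.505), with an unadjusted p of 0.00622 and an edgeR adjusted p of 0.319. The 3 Wnt3a libraries lay above the 3 vehicle libraries, as did those of 9.34% of genes, while 8.19% had them all lower. Of all genes 0.419% passed here, 75 in all, 0.397% as rises and 0.0224% as falls, and TNC stood at rank 349 of 17880 by p-value. The adjusted p fell under 0.05 with every gene of at least 1 count kept (0.00131) and with DESeq2 (0.0444), settings under which 259 and 299 genes passed, and ranged from 0.167 to 0.794 over the other 19. The count of calls depended on single libraries. It was 26, 48 and 20 when vehicle replicate 1, 2 or 3 was left out, 47 and 32 when Wnt3a replicate 1 or 2 was, and 140 when inhibitor replicate 1 was.

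Set against vehicle, cells given both agents had less TNC. The means were 338 ± 68.8 CPM in inhibitor cells and 565 ± 176 CPM in vehicle cells (SD, n = 3 each), 1.67-fold lower with both agents. The log2 fold change was -0.74 (SE 0.265, 95% interval -1.33 to -0.15, edgeR adjusted p = 0.0394). In CPM the groups overlapped, and 2 of the 9 pairs of an inhibitor and a vehicle library had the inhibitor library higher. In TPM they did not overlap, but the share of all genes without overlap was not computed in TPM. TPM lean towards falls here: limma-trend on log2(TPM + 1) called 2722 rises and 5462 falls, against 4462 and 4433 with edgeR and TMM. On the CPM scale 29.8% of genes had all inhibitor libraries lower and 28.5% all higher. In this comparison 49.7% of genes passed, 25% as rises and 24.8% as falls, and 40.2% had a larger absolute log2 fold change. TNC no longer passed after the removal of vehicle replicate 1 (log2 -0.67, edgeR adjusted p = 0.106) or 3 (-0.55, 0.149), of Wnt3a replicate 1 (-0.74, 0.0553), or of inhibitor replicate 1 (-0.58, 0.118), 2 (-0.81, 0.0662) or 3 (-0.84, 0.0566), nor with limma-voom (-0.71, 0.0516). It passed after the removal of vehicle replicate 2 or Wnt3a replicate 2 or 3. This comparison shares its libraries with the others, so its value is not independent of theirs.

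**Figure D2:**
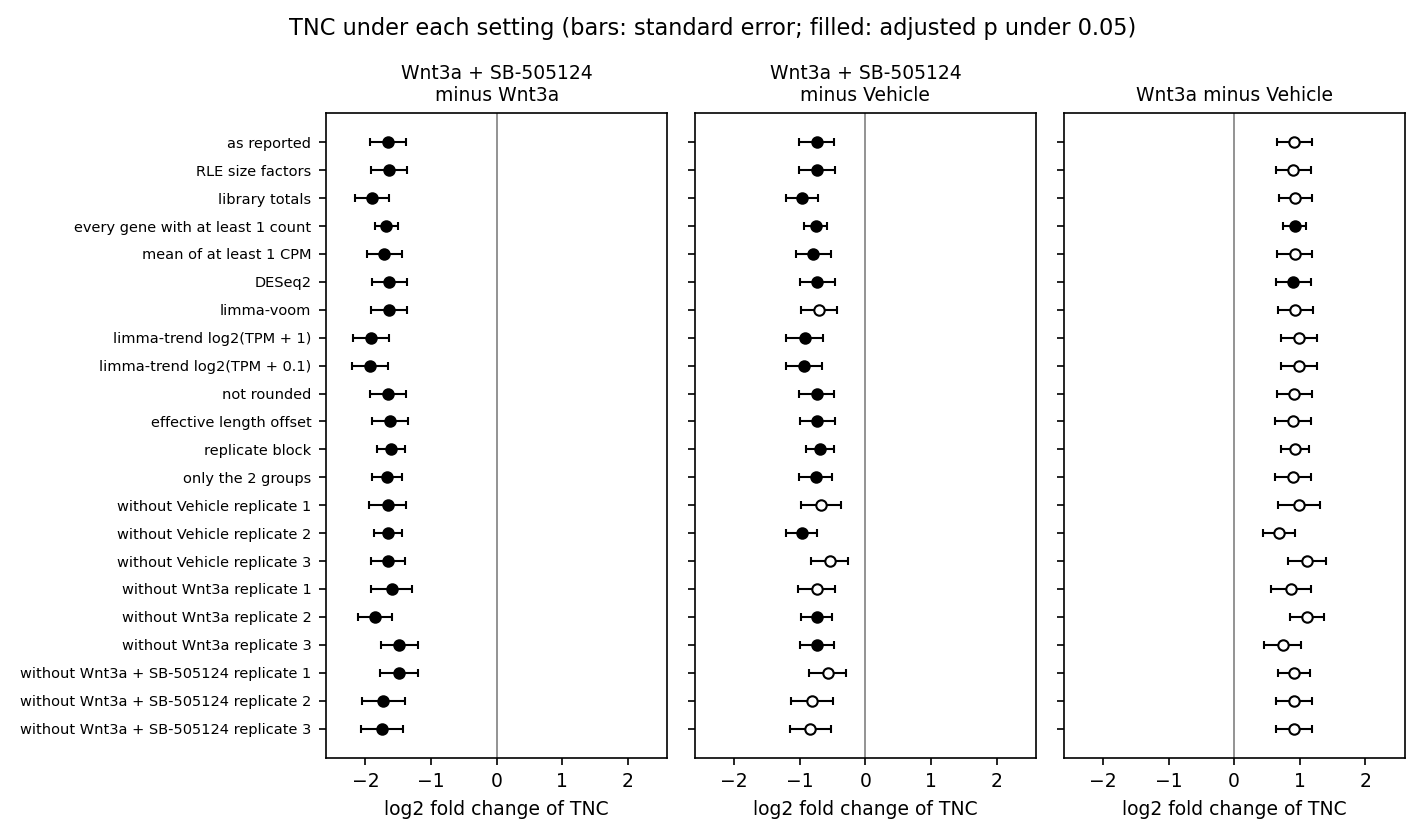
Log2 fold change of TNC (horizontal axis) with its standard error (bars) in the 3 comparisons, as reported and under 21 other settings (rows); filled points have an adjusted p under 0.05. All points for inhibitor against Wnt3a are filled (-1.93 to -1.48), those for inhibitor against vehicle are filled in 14 of the 21 other settings, and those for Wnt3a against vehicle in 2 of 21.

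TNC varied more between replicates than other genes of its level. Its within-group SD of log2 CPM was 0.414, against a median of 0.135 for the 200 genes nearest to it in mean level, 99.0% of which had a smaller SD. The deviations from the group mean, on the log2 scale, were -0.36, 0.16 and 0.20 in inhibitor replicates 1, 2 and 3, 0.14, -0.46 and 0.32 in Wnt3a replicates and 0.19, -0.56 and 0.38 in vehicle replicates. The lowest library was thus replicate 1 of the inhibitor group and replicate 2 of the other groups.

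The genes whose pattern was most like that of TNC were sought among 9783 genes with a mean of at least 10 CPM, by Pearson's r of log2 CPM. They are a description: the libraries share treatments and scaling, and the highest of so many values had to be high. Over the 9 libraries the highest were E2F3, a transcription factor gene of cell cycle entry (r = 0.989), GAPVD1, an endocytic regulator (0.972), PPM1L, a protein phosphatase (0.968), LBR, the lamin B receptor (0.967), and IREB2, an iron-responsive RNA-binding protein (0.961). SPATA13 (0.959), ZMYM4, a zinc finger gene (0.951), and PCYOX1, a lysosomal oxidase (0.944), completed the 8. Of 9783 genes 66 had r of at least 0.9.

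Within groups E2F3 followed TNC as well, but the r by which the 8 genes were chosen includes these deviations. Their within-group r is therefore not a separate result. E2F3 stood at 40.6, 45.6 and 48.4 CPM in inhibitor cells, at 65.3, 57.5 and 70.1 CPM in Wnt3a cells and at 57.8, 47.1 and 58.1 CPM in vehicle cells. Its deviations from the group means had r = 0.980 with those of TNC. Its range was narrower, with a log2 fold change of -0.52 for inhibitor against Wnt3a (edgeR adjusted p = 0.00496) and 0.24 for Wnt3a against vehicle (edgeR adjusted p = 0.705). Of the other 7 genes, the deviations had r of 0.749 to 0.920 with those of TNC, and their log2 fold changes for inhibitor against Wnt3a were -0.90 to -0.25. The lowest r values were those of STX10, a syntaxin of the Golgi (-0.985), KHDRBS3, an RNA-binding protein (-0.959), GRHPR, a glyoxylate reductase (-0.958), and VPS28, a subunit of the ESCRT-I sorting complex (-0.955). Over the 6 libraries without the inhibitor the highest were RGL1 (r = 0.995), SACM1L (0.995), QTRT2 (0.992), FYTTD1 (0.991) and PTPN11 (0.989). None of these 5 was among the 8 above, and over all 9 libraries the r of FYTTD1 was -0.455.

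**Figure D3:**
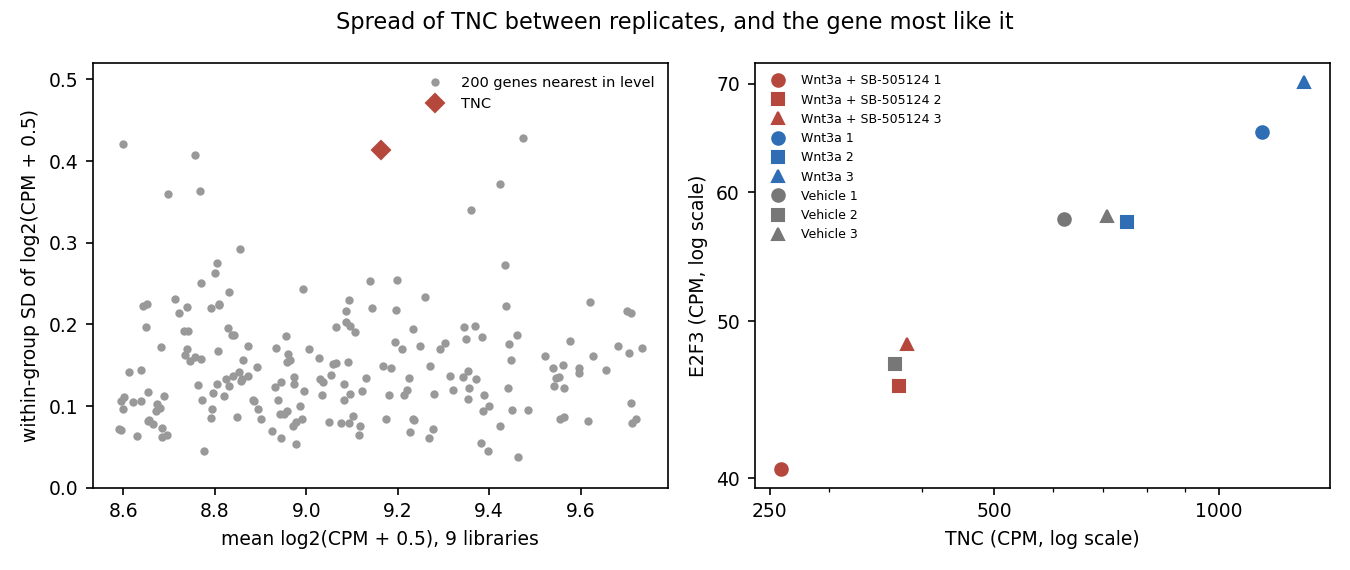
Left, within-group SD of log2(CPM + 0.5) against mean log2(CPM + 0.5) for TNC (diamond, SD 0.414) and the 200 genes nearest to it in level (median SD 0.135). Right, E2F3 against TNC in CPM on log axes, 1 point per library, with colours for groups and symbols for replicates; the 9 libraries run along 1 line (r = 0.989), with inhibitor replicate 1 at its low end and Wnt3a replicate 3 at its high end.

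Levels of different genes are compared here in TPM, which allow for length. Among 72 tested genes for matrix glycoproteins, from a list of 93, TNC ranked 14 in inhibitor cells, 5 in Wnt3a cells and 7 in vehicle cells by mean TPM. Its mean was 89.97 ± 16.4 TPM in inhibitor cells, 347 ± 89.8 TPM in Wnt3a cells and 177 ± 57.9 TPM in vehicle cells. In inhibitor cells it stood between the laminin chains LAMB2 (93.3 ± 34.0 TPM) and LAMB1 (88.5 ± 14.7 TPM), which did not differ from it beyond their spread. In Wnt3a cells its neighbours were fibronectin, FN1 (555 ± 84.1 TPM), and the hemicentin HMCN1 (294 ± 53.1 TPM), and in vehicle cells LTBP4, which binds latent TGF-β (215 ± 36.8 TPM), and IGFBP4, which binds insulin-like growth factors (147 ± 20.9 TPM). TNC made up 1.94% of the summed TPM of these genes in inhibitor cells, 5.81% in Wnt3a cells and 3.22% in vehicle cells. The ranks hold for the group means only, as TNC overlapped HMCN1, LTBP4 and IGFBP4 within their SDs. They also depend on the transcript length used for TNC, a mean weighted by abundance of 4305 to 4899 bases. That is below its shortest complete coding transcript, of 4946 bases, and a longer length would give TNC lower TPM.

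**Figure D4:**
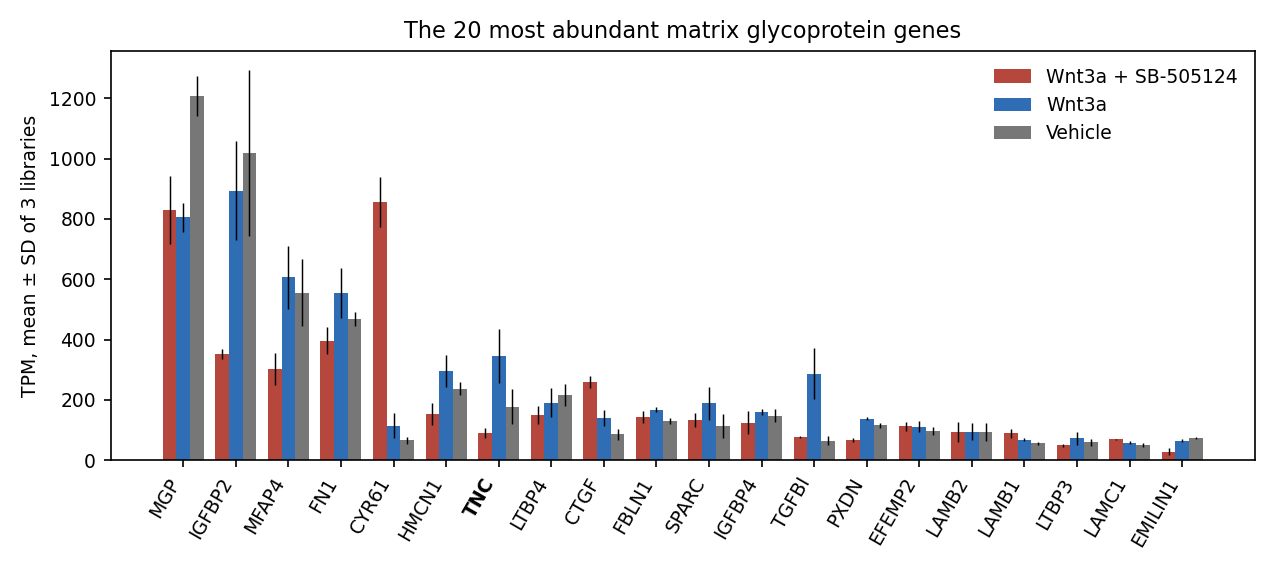
TPM of the 20 matrix glycoprotein genes with the highest mean over the 9 libraries, as mean ± SD of 3 libraries, with inhibitor cells (red), Wnt3a cells (blue) and vehicle cells (grey). TNC is at 89.97, 347 and 177 TPM in that order, while CYR61 is at 857 TPM in inhibitor cells, 114 TPM in Wnt3a cells and 65.6 TPM in vehicle cells.

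Matrix glycoproteins moved both ways with the inhibitor, with more falls than rises. Of the 72, TNC included, 8 rose and 34 fell for inhibitor against Wnt3a (4 and 38 with library totals), beside 24.5% and 25.9% of all genes. Their median log2 fold change was -0.65, against -0.06 for all genes tested. Among the most abundant, IGFBP2, which binds insulin-like growth factors, fell, with means of 262 CPM in inhibitor cells and 526 CPM in Wnt3a cells (edgeR adjusted p = 0.00132), as did MFAP4, a protein of elastic fibres (log2 -0.78, edgeR adjusted p = 0.00368). FN1 did not pass (log2 -0.31, edgeR adjusted p = 0.176), but did with library totals (log2 -0.56, adjusted p = 0.0152). MGP, an inhibitor of calcification, rose (log2 0.43, edgeR adjusted p = 0.00978), but not with library totals (adjusted p = 0.183). CYR61, a CCN family protein and well-known YAP target, rose most of the 72 (log2 3.27, edgeR adjusted p = 8.2e-06). For Wnt3a against vehicle 3 rose and 1 fell, beside 0.397% and 0.0224% of all genes, with a median of 0.14 against 0.01 for all genes.

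Of the other tenascins only TNXB, a tenascin of loose connective tissue, was expressed enough to be tested. It stood at 12.7 TPM in inhibitor cells, 18.6 TPM in Wnt3a cells and 18.7 TPM in vehicle cells, and did not pass for inhibitor against Wnt3a (log2 -0.38, edgeR adjusted p = 0.107) except with library totals (log2 -0.62, adjusted p = 0.0139). TNN and TNR, a bone and a brain tenascin, had 14 and 15 counts in all 9 libraries together.

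Of 16 genes for cell surface proteins that bind tenascin C, or that it keeps from fibronectin, 11 were tested, and for inhibitor against Wnt3a 2 rose, SDC4 and CNTN1, and 1 fell, ITGA5 (0 and 3 with library totals), beside 24.5% and 25.9% of all genes. Their median log2 fold change was -0.23. The integrin subunit ITGA5, part of the fibronectin receptor, stood at 160, 123 and 133 CPM in inhibitor cells against 176, 158 and 189 CPM in Wnt3a cells (log2 -0.33, edgeR adjusted p = 0.0339). Inhibitor replicate 1 lay above Wnt3a replicate 2. Syndecan 4, SDC4, a fibronectin co-receptor that tenascin C can block, stood at 27.8, 33.6 and 32.7 CPM in inhibitor cells against 23.3, 17.8 and 25.8 CPM in Wnt3a cells (log2 0.49, edgeR adjusted p = 0.0479). Its TPM overlapped between these groups, with means of 14.5 in inhibitor cells and 13.1 in Wnt3a cells. Its call was lost with library totals (adjusted p = 0.242), as was that of CNTN1, a neuronal adhesion protein at 1.11 TPM in inhibitor cells and 0.933 TPM in Wnt3a cells. The most abundant, ANXA2 at 2168 TPM in inhibitor cells and 2342 TPM in Wnt3a cells, and the integrin chain ITGB1, at 260 and 349 TPM, did not pass (edgeR adjusted p = 0.121 and 0.709), although ITGB1 did with library totals (log2 -0.29, adjusted p = 0.0175). ITGA8, ITGB6, EGFR, TLR4 and PTPRB were below the filter on low counts, TLR4 with 0 counts. For Wnt3a against vehicle none of the 11 passed, with 0.419% of all genes called.

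Of 8 matrix proteins known to bind tenascin C, 5 were tested, and for inhibitor against Wnt3a 0 rose and 3 fell (0 and 4 with library totals), where 24.5% of all genes rose and 25.9% fell. They were POSTN, periostin, which joins tenascin C to other fibres, FBN2, a fibrillin, and HSPG2, perlecan. POSTN stood at 3.45, 2.04 and 2.36 CPM in inhibitor cells against 26.8, 22.3 and 9.38 CPM in Wnt3a cells (log2 -2.90, edgeR adjusted p = 0.00151), and the groups did not overlap. FBN2 stood at 183, 105 and 119 CPM in inhibitor cells against 373, 297 and 228 CPM in Wnt3a cells (log2 -1.14, edgeR adjusted p = 0.00327), again with no overlap. The fall of HSPG2 was smaller (log2 -0.73, edgeR adjusted p = 0.00227). The lecticans ACAN, VCAN and NCAN had 5, 6 and 5 counts in all.

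Among 9 proteases that cut tenascin C, 5 were tested. For inhibitor against Wnt3a 1 rose and 2 fell, beside 24.5% and 25.9% of all genes. The gelatinases MMP2 (log2 -0.75, edgeR adjusted p = 0.00719) and MMP9 (log2 -2.63, edgeR adjusted p = 0.0206) fell and the aggrecanase ADAMTS4 rose in CPM (log2 0.92, edgeR adjusted p = 0.00345). In TPM the groups overlapped for ADAMTS4, with means of 23.25 in inhibitor cells and 18.8 in Wnt3a cells. MMP9 was scarce, at 0.417, 0.395 and 0.128 CPM in inhibitor cells against 1.93, 3.10 and 0.797 CPM in Wnt3a cells. CTSB, cathepsin B, at 210 TPM in inhibitor cells and 230 TPM in Wnt3a cells, did not pass (edgeR adjusted p = 0.117).

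Of 11 genes for adhesion kinases and parts of invadopodia, the protrusions with which cells digest matrix, 3 rose and 2 fell for inhibitor against Wnt3a (2 and 4 with library totals). That is 5 of 11, near the 50.4% of all genes called. CTTN, cortactin, a core part of invadopodia, stood at 53.7, 89.9 and 85.7 CPM in inhibitor cells against 168, 160 and 135 CPM in Wnt3a cells (log2 -1.01, edgeR adjusted p = 0.000919). MMP14, the membrane-bound collagenase of these structures, stood at 341, 356 and 366 CPM in inhibitor cells against 171, 156 and 165 CPM in Wnt3a cells (log2 1.11, edgeR adjusted p = 6.5e-06). The groups did not overlap for either gene. WASL, an activator of actin branching, rose (log2 1.33, edgeR adjusted p = 0.000132). The kinase gene SRC also rose in CPM (log2 0.36, edgeR adjusted p = 0.00873), though its mean TPM was 18.4 in inhibitor cells and 19.7 in Wnt3a cells, and SH3PXD2B, a scaffold of invadopodia, fell (log2 -0.60, edgeR adjusted p = 0.00944). None of the 11 passed for Wnt3a against vehicle, where 0.419% of all genes did.

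All 20 transcription regulators reported to act on the gene were tested, and 11 rose and 4 fell for inhibitor against Wnt3a (9 and 5 with library totals), beside 24.5% and 25.9% of all genes. The rises included immediate-early factors. EGR1 stood at 238, 433 and 456 CPM in inhibitor cells against 23.1, 30.3 and 91.5 CPM in Wnt3a cells (log2 2.96, edgeR adjusted p = 0.00187), and FOS at 69.3, 138 and 147 CPM against 12.6, 17.1 and 25.3 CPM (log2 2.69, edgeR adjusted p = 0.000126). Both were lowest in inhibitor replicate 1 among inhibitor libraries, and neither overlapped. ETS1, scarce at 1.68 TPM in inhibitor cells and 0.317 TPM in Wnt3a cells, also rose (log2 2.83, edgeR adjusted p = 0.00645). The falls were SMAD3, which carries the TGF-β signal to DNA (log2 -0.78, edgeR adjusted p = 0.000687), CTNNB1, the β-catenin gene (log2 -0.56, edgeR adjusted p = 0.00416), POU3F2, a POU factor (log2 -0.85, edgeR adjusted p = 0.00447), and NOTCH2 (log2 -0.42, edgeR adjusted p = 0.00362). SMAD2 and SMAD4 rose (log2 0.84 and 0.76, edgeR adjusted p = 9.46e-05 and 4.11e-05). For Wnt3a against vehicle 0 of the 20 passed, beside 0.419% of all genes, and PRRX1, a mesenchymal homeobox gene and the most abundant of them, did not differ past the threshold (log2 0.58, edgeR adjusted p = 0.76).

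**Figure D5:**
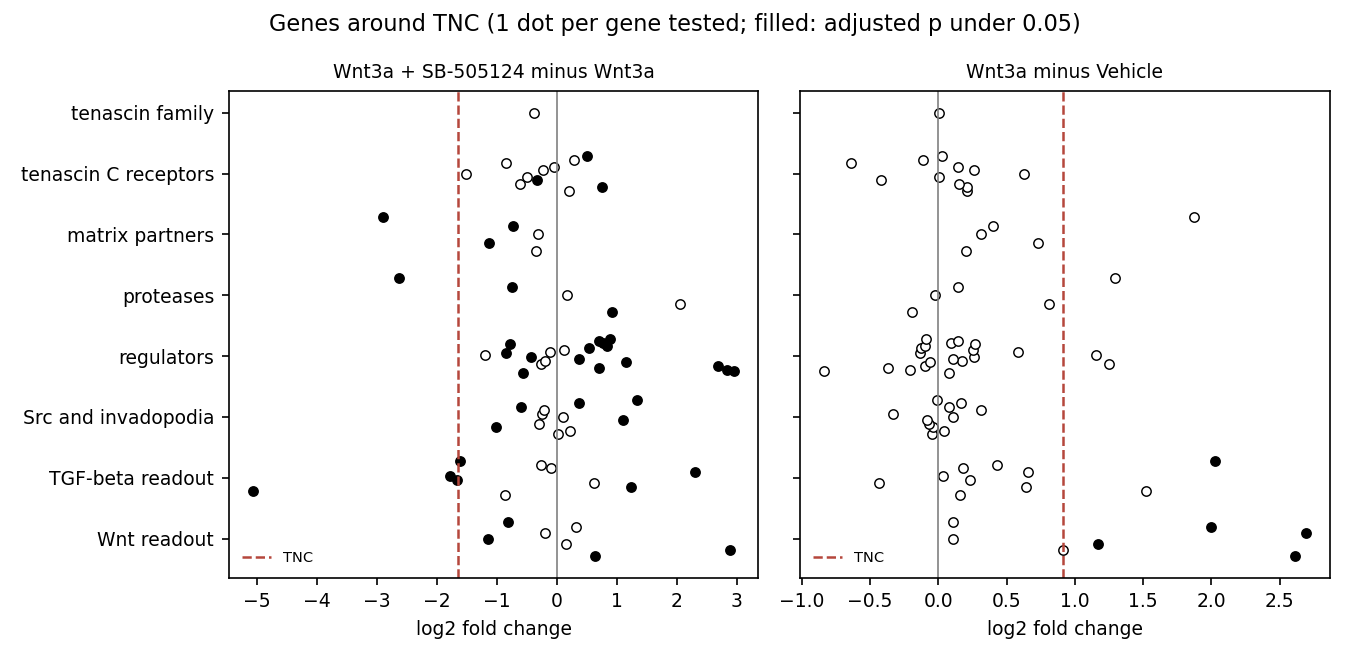
Log2 fold changes of the tested genes of 8 lists for inhibitor against Wnt3a (left) and Wnt3a against vehicle (right), 1 dot per gene, filled where the edgeR adjusted p is under 0.05; the dashed line is TNC (-1.66 and 0.91). In the left panel POSTN, MMP9, COL1A1 and PMEPA1 are among the genes left of TNC, and FOS, ETS1, EGR1 and DKK1 lie at the high end.

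Readouts of each pathway give the setting in which TNC moved. Of 10 genes commonly induced by TGF-β, 2 rose and 4 fell for inhibitor against Wnt3a (2 and 6 with library totals), beside 24.5% and 25.9% of all genes, so the share called is near the 50.4% of all genes. PMEPA1, a feedback inhibitor of the pathway, stood at 13.4, 14.4 and 14.2 CPM in inhibitor cells against 53.2, 51.0 and 40.7 CPM in Wnt3a cells (log2 -1.79, edgeR adjusted p = 4.75e-06). CTGF, a CCN family protein, went the other way and rose (log2 1.24, edgeR adjusted p = 0.000437). Like TNC, the secreted adhesion protein TGFBI was highest in Wnt3a cells, at 98.0, 111 and 106 CPM in inhibitor cells, 406, 247 and 313 CPM in Wnt3a cells and 93.2, 60.4 and 83.5 CPM in vehicle cells. Unlike that of TNC, its rise with Wnt3a passed (log2 2.03, edgeR adjusted p = 0.00286) and it did not pass for inhibitor against vehicle (log2 0.41, edgeR adjusted p = 0.103). The difference between the genes was not tested.

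Of 11 Wnt target genes 7 were tested. LEF1, SP5, NOTUM and RNF43 were below the filter on low counts, with 24, 15, 5 and 1 counts in all 9 libraries. For Wnt3a against vehicle 4 rose, AXIN2, NKD1, TCF7 and FZD7, and 0 fell, beside 0.397% and 0.0224% of all genes. For inhibitor against Wnt3a 2 rose, AXIN2 and DKK1, and 2 fell, LGR5 and ZNRF3 (1 and 2 with library totals), beside 24.5% and 25.9% of all genes. The genes that fell with the inhibitor had not passed with the ligand (log2 0.11 each, edgeR adjusted p = 0.953 and 0.931). AXIN2, the scaffold of the β-catenin destruction complex, stood at 27.9, 35.7 and 29.7 CPM in inhibitor cells, 17.9, 23.3 and 19.1 CPM in Wnt3a cells and 3.15, 3.05 and 3.66 CPM in vehicle cells. No pair of these groups overlapped in CPM. In TPM, AXIN2 in inhibitor replicate 1 (8.81) lay below AXIN2 in Wnt3a replicate 2 (10.24). For inhibitor against Wnt3a its log2 fold change was 0.63 (edgeR adjusted p = 0.00471), which did not pass with library totals (log2 0.38, adjusted p = 0.0543). DKK1, a secreted Wnt antagonist, rose with the inhibitor (log2 2.88, edgeR adjusted p = 0.00438), and the receptor gene LGR5 (log2 -1.15, edgeR adjusted p = 0.00156) and the ligase gene ZNRF3 (log2 -0.82, edgeR adjusted p = 0.00148) fell.

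The mix of TNC transcripts can be read only through the mean transcript length that RSEM gives for each gene, weighted by abundance. It was 4493 ± 163 bases in inhibitor cells, 4704 ± 189 bases in Wnt3a cells and 4654 ± 35.6 bases in vehicle cells (SD, n = 3 each). The lowest library was inhibitor replicate 1, at 4305 bases, and the highest Wnt3a replicate 2, at 4899 bases. The log2 difference was -0.07 for inhibitor against Wnt3a (SE 0.0373, limma adjusted p = 0.448), -0.05 for inhibitor against vehicle (limma adjusted p = 0.596) and 0.01 for Wnt3a against vehicle (limma adjusted p = 1). Of 14226 genes whose length varied, 3.92% passed in the first, 3.99% in the second and 0% in the third of these comparisons. GENCODE release 29 lists 6 complete coding transcripts of TNC of 4946 to 7641 bases and 8 partial or noncoding ones of 69 to 1844 bases. The weighted mean lay below the shortest complete coding transcript in every library, and which of the repeats were spliced in cannot be told from it.

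Around TNC, 29 other genes lay within 1 Mb and 6 of them were tested. DEC1, on the opposite strand, overlaps TNC and had 67 counts in all 9 libraries, against 231819 for TNC. The nearest coding gene on the low side, TNFSF8, had 0 counts. On the high side it is PAPPA, a protease of growth factor binding proteins, 1036 kb away. PAPPA stood at 140 ± 7.78 CPM in inhibitor cells and 158 ± 18.7 CPM in Wnt3a cells and did not pass (log2 -0.17, edgeR adjusted p = 0.273). COL27A1, a fibrillar collagen gene 707 kb away, fell by 1.69 on the log2 scale for inhibitor against Wnt3a (edgeR adjusted p = 0.00841), beside -1.66 for TNC, and stood at 0.74 for Wnt3a against vehicle (edgeR adjusted p = 0.778). ZNF618, a zinc finger gene, also fell with the inhibitor (log2 -0.55, edgeR adjusted p = 0.0022), ATP6V1G1, a proton pump subunit, rose (log2 0.32, edgeR adjusted p = 0.0135), and AKNA, WHRN and TMEM268 did not pass (edgeR adjusted p = 0.0987, 0.363 and 0.547).

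The markers of the label were present. All 10 markers of Ewing sarcoma were tested, with CD99, the surface antigen used in diagnosis, at 1119 TPM in inhibitor cells, 1318 TPM in Wnt3a cells and 1549 TPM in vehicle cells. For inhibitor against Wnt3a 0 of the 10 rose and 4 fell, beside 24.5% and 25.9% of all genes (0 and 6 with library totals). Among the 4 was NKX2-2, at 21.0 TPM in inhibitor cells and 53.7 TPM in Wnt3a cells (edgeR adjusted p = 0.000337). The summed level of 5 endothelial markers was 0.47 to 0.84 TPM in inhibitor cells, 0.58 to 1.48 TPM in Wnt3a cells and 0.68 to 1.13 TPM in vehicle cells, and that of 5 epithelial markers 0.47 to 0.86 TPM over all libraries. Of 4 leukocyte markers CD3E was at 0 counts and PTPRC at 22 counts in all, while CD68, a lysosomal protein, was at 6.24 TPM in inhibitor cells and 2.07 TPM in Wnt3a cells (log2 2.44, edgeR adjusted p = 0.000788). The 5 fibroblast markers, which some tumour cells also express, summed to 46.4 to 52.3 TPM in inhibitor cells, 60.2 to 81.1 TPM in Wnt3a cells and 34.1 to 36.5 TPM in vehicle cells, led by LUM. The sum joins opposite changes: for inhibitor against Wnt3a 1 rose and 1 fell (0 and 2 with library totals), beside 24.5% and 25.9% of all genes. The part of these markers in the TNC result was not tested.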

How the data were processed

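Polyadenylated RNA of 9 TC32 libraries was sequenced from a stranded kit, per the labels' protocols. The submitters' processing notes name the build hg38 and the tools RSEM 1.2.31, STAR 2.5.2a, Trimmomatic 0.36 and CASAVA 1.8.2. No source used here gives the annotation release or strand setting. Each deposited table gives, per the file headers, expected counts per gene, in which RSEM shares out reads that match several transcripts, with the authors' TPM, a transcript length and an effective length. The 45 second rows of pseudoautosomal genes were added to their partners, and 57895 of 58233 IDs were found in GENCODE release 29.

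Expected counts were rounded. Genes kept by filterByExpr (17880) were fitted in 1 model of 3 groups over all 9 libraries, with TMM factors and 6 residual degrees of freedom, with edgeR 4.0.16 (quasi-likelihood) under R 4.3.3. Tests were 2-sided, adjusted by Benjamini-Hochberg over all genes at a threshold of 0.05. A standard error is the size of the log2 fold change divided by the square root of F. Lengths were tested with limma 3.58.1 on log2 length. DESeq2 1.42.0, limma-voom and limma-trend on log2(TPM + 1) were among the alternatives. The code was tested on simulated data. TNC, the lists, tests and alternatives were chosen with earlier results of these data known. Of each list, the 5 most abundant tested members and the largest changes past the threshold could be named; SMAD2, SMAD3, POU3F2, NOTCH2, SRC, SH3PXD2B, ZNRF3 and the genes below the filter were chosen with their values in view. Values of 1 listed gene are not reported here. The files' older symbols CYR61 and CTGF are kept.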

Additional observations from a re-analysis of the deposited data

How the results depend on the processing

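For TNC, direction was the same in each of 21 alternatives in all 3 comparisons. Inhibitor against Wnt3a kept its call in all 21. Wnt3a against vehicle passed in 2 of 21, with every gene of at least 1 count kept (log2 0.92, 259 genes called) and with DESeq2 (log2 0.90, 299 genes called); the cause was not tested. Leaving out 1 library gave log2 fold changes of 0.68 to 1.11 and 20 to 140 genes called. Inhibitor against vehicle lost its call with limma-voom (log2 -0.71) and in 6 of the 9 fits that left out a library, which ranged from -0.97 to -0.55; the cause was not tested. Counts of genes called in the inhibitor comparisons stayed within 7411 and 9613. With the replicate block, the log2 fold changes of TNC were -1.61, -0.69 and 0.92 for inhibitor against Wnt3a, inhibitor against vehicle and Wnt3a against vehicle, with 9166, 9039 and 79 genes called and no call of TNC changed. Replicate numbers were not taken as pairs: of 9 same-numbered pairs across groups, 5 had deviations that correlated above 0.1, and the lowest r was -0.237. In addition, 7 of 9 libraries correlated best with a library of their own number, which is a hint from the data and not the design. The length difference for Wnt3a against vehicle ranged from -0.015 to 0.0429 when 1 library was left out, and changed sign without Wnt3a replicate 2; no length test of TNC passed in any of 11 alternatives. With the TPM pseudocount at 0.1, TNC differed by -1.93, -0.93 and 0.99 in the same order.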

Other observations

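Within groups, most matrix glycoproteins did not follow TNC from library to library. For 38 of them with a mean of at least 10 CPM, the deviations from the group means had a median r of -0.15 with those of TNC, with 14 of 38 above 0, while over all 9783 genes compared the median was 0.24 and 61.6% were above 0. Over the 9 libraries, group differences included, the same 38 had a median r of 0.55, against -0.20 for all genes compared. CTGF (r = 0.873), FN1 (0.851), LAMB3, a laminin chain (0.805), and TGFBI (0.782) had the highest values within groups, and EFEMP2, a fibulin (-0.891), and MFAP2, a microfibril protein (-0.865), the lowest. These are descriptions over 9 libraries that share treatment, depth and scaling, and the genes were named after their values were seen.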
